A study of Mus musculus with 8 samples.

Results

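Ly49-bearing CD8 T cells of the spleen were taken as the barcodes in which the transcripts of 3 inhibitory Ly49 receptor genes, Klra1 (Ly49A), Klra6 (Ly49F) and Klra7 (Ly49G), summed to at least 2 unique molecular identifiers (UMIs, each a captured transcript molecule). The barcodes also needed at least 500 UMIs, at least 300 detected genes and under 10% mitochondrial UMIs. In all, 399 of 11061 kept spleen barcodes met the rule, 109 of 5726 in EomesTG spleen and 290 of 5335 in WT spleen. EomesTG denotes mice homozygous for an Eomes transgene (EomesTg/Tg), made to express Eomes in T cells, and WT denotes C57BL/6 mice; both carry the C57BL/6 background. CD8+ T cells were sorted by flow cytometry from spleen and liver, and the study asked what a gain of Eomes does to gene expression and clone sizes in both organs. Each strain contributed 3 mice whose cells were mixed ahead of the sort, which leaves 1 droplet library of RNA and 1 matched library of T cell receptors (TCR) per genotype and tissue. The labels used here do not name the promoter that drives the transgene, and its reads cannot be told apart from those of the endogenous gene. With 1 library per group, library and genotype cannot be told apart, no difference was tested against the spread between mice, and every 95% interval below covers counting error only.

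Ly49 receptors are lectin-like receptors encoded in the natural killer (NK) gene complex. The inhibitory members bind MHC class I molecules and signal through tyrosine motifs that recruit the phosphatase SHP-1, while activating members such as Klra8 (Ly49H) signal through the adaptor DAP12 (Tyrobp). They are best known from NK cells, but a small fraction of mouse CD8 T cells carries them, including memory-phenotype cells and the Helios-positive (Ikzf2) population described as regulatory CD8 T cells. Eomes is a T-box transcription factor of NK cells and memory CD8 T cells.

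The Ly49 genes lie side by side on the reverse strand of chromosome 6. Klra1 spans chr6:130363917-130386874, Klra6 chr6:130013033-130026954, Klra7 chr6:130218605-130233322 and Klra8 chr6:130115226-130129898 in GRCm38 (GENCODE M21). Promoters of an inhibitory gene used to choose the cells and of the activating gene whose level differed most between the genotypes are shown from RefSeq, build GRCm38.p6, as the 250 bases before and the 50 after an annotated start, 5′ to 3′ on the strand of the gene. Capitals mark matches on either strand to TCACACC, the core of a T-box site (reverse complement GGTGTGA), and to TGTGGT, a RUNX site (reverse complement ACCACA).
Klra1, chr6:130386825-130387124: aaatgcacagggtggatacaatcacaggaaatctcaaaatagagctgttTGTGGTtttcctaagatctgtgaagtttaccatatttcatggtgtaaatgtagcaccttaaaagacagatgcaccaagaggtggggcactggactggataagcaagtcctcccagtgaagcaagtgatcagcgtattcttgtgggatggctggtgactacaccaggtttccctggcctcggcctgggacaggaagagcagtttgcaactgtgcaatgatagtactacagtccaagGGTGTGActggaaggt
Klra8, chr6:130129849-130130148: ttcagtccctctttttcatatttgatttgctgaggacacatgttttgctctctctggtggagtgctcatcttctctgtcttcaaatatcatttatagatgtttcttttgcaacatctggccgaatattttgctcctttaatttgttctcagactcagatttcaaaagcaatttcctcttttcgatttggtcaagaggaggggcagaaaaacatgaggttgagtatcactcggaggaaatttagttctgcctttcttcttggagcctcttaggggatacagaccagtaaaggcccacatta
The Klra1 window held 1 match to each motif, which do not overlap, and this Klra8 window held none. Of 32851 such promoter windows of the mouse, 3.98% held the T-box letters and 16.8% the RUNX letters. The 1 window of Klra6, the 2 of Klra7, the 2 of Klra8 and the 1 of Klra9 held neither.

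The values used by the rule are given as a description. Ly49-bearing cells made up 1.90% of kept barcodes in EomesTG spleen (exact 95% interval 1.57 to 2.29) and 5.44% in WT spleen (4.84 to 6.08), a log2 ratio of -1.51 (-1.85 to -1.19) and a 2.86-fold lower share in EomesTG spleen. Among barcodes with Ccl5, a chemokine of memory CD8 T cells, at 0.1% of UMIs or more, they made up 97 of 1193 (8.13%) in EomesTG spleen and 273 of 1969 (13.9%) in WT spleen, a log2 ratio of -0.77 (-1.12 to -0.43). The share was thus lower in EomesTG spleen on either denominator, by less where the Ccl5-expressing cells were the denominator. The same rule found 178 of 4521 barcodes (3.94%) in EomesTG liver and 467 of 3150 (14.8%) in WT liver.

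Just outside the threshold, with a sum of 1, were 133 cells in EomesTG spleen and 164 in WT spleen. Just inside it, with a sum of 2, were 51 EomesTG and 85 WT cells. Sums of 4 or more were reached by 33 EomesTG and 148 WT cells, with a highest sum of 14 in EomesTG and 18 in WT cells. Most EomesTG members therefore sat close to the threshold, whereas in WT spleen the cells with 4 or more UMIs were the largest of these classes among members.

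Klra7 was the receptor detected most often, in 77 of 109 EomesTG members (70.6%) and 229 of 290 WT members (79.0%). Klra6 was detected in 47.7% of EomesTG and 57.2% of WT members, and Klra1 in 35.8% and 34.1% of them. Single cells often held more than 1 receptor: 51 EomesTG and 134 WT members had 2 of the 3, and 4 EomesTG members (3.67%) and 35 WT members (12.1%) had all 3. A gene with few UMIs is missed in some cells that express it, and levels summed over members were 143, 122 and 267 counts per 1000000 UMIs of the class (CPM) for Klra1, Klra6 and Klra7 in EomesTG members and 145, 183 and 426 CPM in WT members. These genes are near-identical to one another and to Klra3, Klra8 and Klra9, so reads of one may have been assigned to another or dropped, and values of single Ly49 genes are uncertain.

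**Figure D1:**
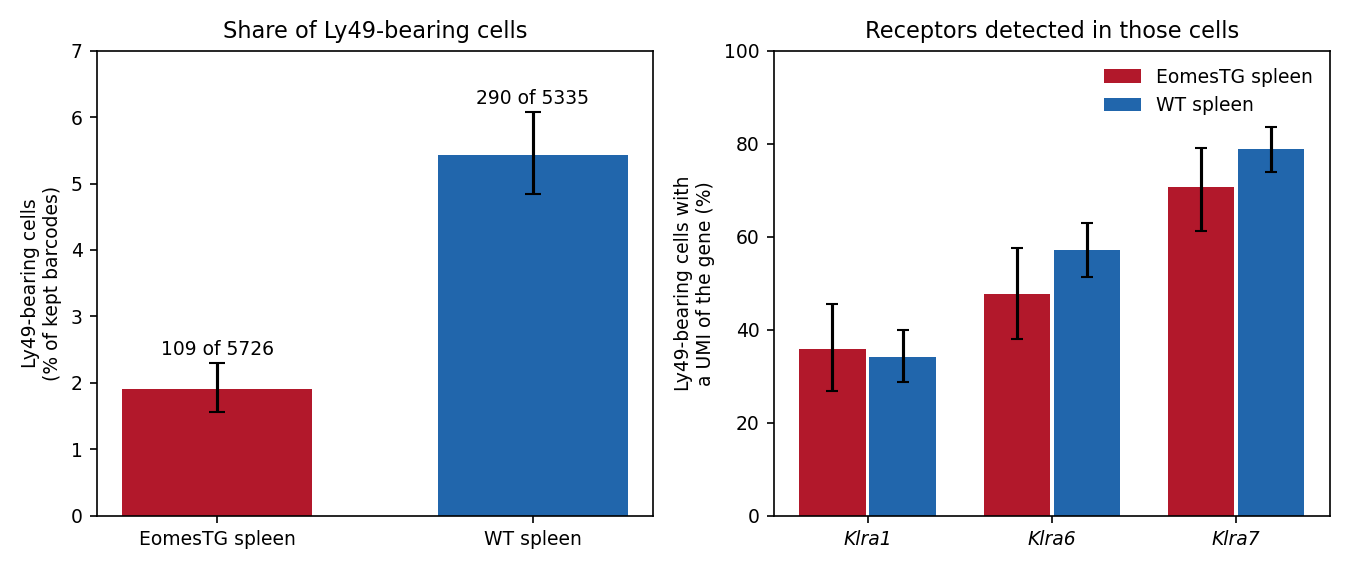
Ly49-bearing cells in the spleen libraries, EomesTG left of WT: their share of kept barcodes in percent with exact 95% intervals (counting error only), and the percentage of members in which each of Klra1, Klra6 and Klra7 was detected. The share was 1.90% in EomesTG spleen and 5.44% in WT spleen, and Klra7 was detected most often in both.

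The cells that Ly49-bearing cells were set against came from the same library, had a Ly49 sum of 0 and had Ccl5 at 0.1% of UMIs or more; there were 1008 of these Ly49-zero Ccl5-expressing cells in EomesTG spleen and 1564 in WT spleen. Members did not have to pass the Ccl5 threshold, and 89.0% of EomesTG and 94.1% of WT members did. Members held medians of 5920 UMIs in EomesTG and 5450.5 in WT spleen, against 4729 in EomesTG and 4877 in WT Ly49-zero Ccl5-expressing cells. The summed UMIs behind the levels were 699407 over EomesTG and 1711875 over WT members. A productive TRB chain was recovered from 90.8% of EomesTG and 93.8% of WT members, close to the 90.6% and 91.0% of Ly49-zero Ccl5-expressing cells of EomesTG and WT spleen. Barcodes with 2 TRB chains made up 11.9% of EomesTG and 11.4% of WT members, against 6.35% and 6.07% of the Ly49-zero Ccl5-expressing cells of EomesTG and WT spleen, and no doublet caller was run. The spleen libraries shared 57 kept barcode sequences, and none was a member in both.

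The label of CD8 T cells was checked against defining genes. Cd3e, a subunit of the TCR complex, had a UMI in 106 of 109 EomesTG and 287 of 290 WT members, and Cd8a in 73.4% of EomesTG and 64.8% of WT members. Among defining genes of other types, Cd4 had 1 UMI in EomesTG and 0 in WT members, the B-cell genes Cd79a and Ms4a1 were at 0 in both, and all 6 erythroid and platelet markers were at 0 in both. Of 11 B-cell markers, 5 were at 0 in EomesTG and 6 in WT members, and the list summed to 277 CPM in EomesTG and 281 CPM in WT members, against 249 and 224 CPM in the Ly49-zero Ccl5-expressing cells of EomesTG and WT spleen. Ighd, an immunoglobulin constant gene, stood at 10.5 CPM in WT members against 4.09 CPM, a log2 ratio of 1.36 (0.44 to 2.24). Of 14 myeloid and dendritic markers, 11 were at 0 in EomesTG and 10 in WT members, and the list summed to 87.2 CPM in EomesTG and 84.1 CPM in WT members, against 102 and 101 CPM. The part of these cell types in the results was not tested. Ncr1, the NK receptor NKp46, had UMIs in 1 EomesTG and 5 WT members. The EomesTG cell had 18 Ncr1 UMIs, 0 UMIs of Cd8b1 and Cd3e and no TCR chain, so it went against its label as a T cell. The 5 WT cells had 2 to 5 Ncr1 UMIs and 0 of Cd8b1, with 0 to 9 Cd3e UMIs, a TRB chain in 2 of them and a TRA chain in none. The WT cell with 12 Tyrobp UMIs had 0 Cd3e UMIs and no TCR chain, so it too went against its label as a T cell. The summed NK marker list stood at 572 CPM in EomesTG and 808 CPM in WT members, against 404 and 485 CPM in the Ly49-zero Ccl5-expressing cells of EomesTG and WT spleen. Values without the Ncr1-bearing barcodes are given below, and the part of NK cells in the results was otherwise not tested. NKT and MAIT genes summed to 24.3 CPM in EomesTG and 38.6 CPM in WT members, against 8.50 and 16.6 CPM in the Ly49-zero Ccl5-expressing cells of EomesTG and WT spleen. Gamma-delta T-cell genes, the gamma constant genes among them, summed to 32.9 CPM in EomesTG and 59.6 CPM in WT members, against 37.5 and 30.6 CPM in the Ly49-zero Ccl5-expressing cells of EomesTG and WT spleen. The gamma constant genes, looked up under the symbols of the matrix after their values were seen, had log2 ratios in WT spleen of 2.73 (1.53 to 3.98) for Tcrg-C1, which had fewer than 30 UMIs over both classes, 2.94 (2.08 to 3.84) for Tcrg-C2 and 1.97 (1.21 to 2.71) for Tcrg-C4. In EomesTG members the ratios were -0.77 (-6.18 to 1.99), -1.43 (-4.52 to 0.52) and 0.46 (-0.48 to 1.30). Cells with a UMI of these genes were 9 EomesTG members (8.26%) and 54 WT members (18.6%), and 8 and 51 of them had a productive TRB chain. The delta constant gene Trdc had 3 UMIs in EomesTG and 6 in WT members, log2 ratios of -0.88 (-3.22 to 0.77) and -0.65 (-2.17 to 0.59).

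Fcer1g and Tyrobp, adaptors that pair with activating NK receptors, were higher in Ly49-bearing than in Ly49-zero Ccl5-expressing cells of WT spleen, and Fcer1g also in EomesTG spleen. Fcer1g, the common gamma chain of Fc receptors (chr1:171229572-171234365, reverse strand), had a UMI in 11 EomesTG members (10.1%) and 95 WT members (32.8%). Its level was 50.04 CPM in EomesTG members against 5.26 CPM in EomesTG Ly49-zero Ccl5-expressing cells, a log2 ratio of 3.25 (2.48 to 4.04), and 189 CPM in WT members against 11.4 CPM in WT Ly49-zero Ccl5-expressing cells, a log2 ratio of 4.05 (3.71 to 4.41). Both ratios kept their direction without the member with the most Fcer1g UMIs, at 2.83 in EomesTG and 3.97 in WT spleen. In the Ly49-zero Ccl5-zero cells the Fcer1g level was 0.520 CPM in EomesTG and 0.0809 CPM in WT spleen. With each cell thinned to 2000 UMIs, 4.63% of EomesTG and 22.7% of WT members had an Fcer1g UMI. Tyrobp, which encodes DAP12, stood at 53.7 CPM in WT members against 4.35 CPM in WT Ly49-zero Ccl5-expressing cells, a log2 ratio of 3.63 (3.04 to 4.24) with UMIs in 26 cells. In EomesTG members the Tyrobp ratio of 3.56 rested on 30 of 35 UMIs in the Ncr1-bearing cell described above, and without it the log2 ratio was 0.76 (-1.01 to 2.20). Without all Ncr1-bearing barcodes the ratios were 2.83 for Fcer1g and 1.74 for Klre1, an NK receptor gene, in EomesTG spleen, and 4.05 for Fcer1g, 3.08 for Tyrobp and 2.90 for Klre1 in WT spleen. Cd247, the zeta chain, which pairs with the TCR and with NK receptors, stood at 134 against 220 CPM in EomesTG spleen, a log2 ratio of -0.71 (-1.03 to -0.41), and at 177 against 228 CPM in WT spleen, a log2 ratio of -0.36 (-0.55 to -0.19), short of 1.5-fold.

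A gene is called higher or lower below where the ratio was at least 1.5-fold and its interval lay on that side of equality, with at least 30 UMIs over both classes. By this rule 1.49% of the 8524 genes measured in EomesTG spleen were higher and 3.33% lower in Ly49-bearing than in Ly49-zero Ccl5-expressing cells, 4.82% in either direction. In WT spleen the shares were 2.6% higher and 3.41% lower of 9256 genes, 6.02% in either direction. The median log2 ratio over all genes measured was -0.06 in EomesTG and -0.02 in WT spleen. The lists of pathway and cell-state genes were chosen with results of these data known, so their counts are descriptions. Leaving out the genes of the rule, 16 of 231 listed genes were higher and 34 lower in EomesTG members, and 30 of 241 were higher and 53 lower in WT members. Of 226 listed genes measured in both genotypes, 10 were higher in both and 20 lower in both. The share of all measured genes called in both genotypes is not given here. The balance of directions depended on the cells that members were set against: against all Ly49-zero cells, 44 listed genes were higher and 31 lower in EomesTG members, and 48 were higher and 49 lower in WT members. Without the member with the most UMIs of each gene, 10 were higher and 57 lower in EomesTG members, and 27 higher and 65 lower in WT members. In this setting the Ly49-zero Ccl5-expressing cells kept their own top cell, so it tends to lower ratios by design. On the list of adaptors and inhibitory signalling genes, 3 of 15 were higher and 1 lower in EomesTG members (median -0.19), and 5 of 17 were higher and 1 lower in WT members (median -0.02).

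Other members of the Ly49 family were higher in Ly49-bearing cells, 3 of 3 measured in EomesTG and 2 of 2 in WT spleen, within the limits of read assignment given above. Klra9 (Ly49I) stood at 62.9 CPM in EomesTG members against 15.2 CPM in EomesTG Ly49-zero Ccl5-expressing cells, and at 15.2 CPM in WT members against 3.58 CPM in their counterparts. Klra3 (Ly49C) stood at 61.5 against 26.5 CPM in EomesTG and at 53.2 against 12.9 CPM in WT spleen. Klra8 was measured above the minimum in EomesTG spleen, at 67.2 CPM in members against 9.52 CPM, a log2 ratio of 2.82 (2.21 to 3.43), while in WT spleen each class held 10 UMIs. Klra8 UMIs came from 18 EomesTG members (16.5%) and 4 WT members (1.38%).

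NKG2-family and other NK receptors were split. In WT spleen 7 of 11 measured genes were higher and 2 lower in members (median log2 ratio 0.98), and in EomesTG spleen 5 of 11 were higher and 2 lower (median -0.06). One of the EomesTG genes, Klrb1c (NK1.1), was no longer called without the Ncr1-bearing cell, at a log2 ratio of 1.18. Klre1, a lectin-like receptor expressed on NK cells (chr6:129577905-129585827, forward strand), stood at 61.5 CPM in EomesTG members against 17.6 CPM, a log2 ratio of 1.80 (1.24 to 2.35), and at 137 CPM in WT members against 18.04 CPM, a log2 ratio of 2.93 (2.62 to 3.24). Klrc2 (NKG2C, the activating partner of CD94) stood at 17.2 against 4.45 CPM in EomesTG and at 53.7 against 6.14 CPM in WT spleen, log2 ratios of 1.95 (0.80 to 3.02) and 3.13 (2.61 to 3.66). Klrd1, which encodes CD94 itself, was higher by 0.62 in EomesTG and by 0.75 in WT members on the log2 scale. Klrk1, which encodes NKG2D, was called higher in WT members, at 141 against 69.0 CPM (log2 ratio 1.04, 0.81 to 1.26), and stood at 34.3 against 35.8 CPM in EomesTG spleen (log2 ratio -0.06, -0.74 to 0.56). Klrg1, an inhibitory receptor of terminal effector cells, went the opposite way, with 0 UMIs in EomesTG members against 54 in EomesTG Ly49-zero Ccl5-expressing cells, at least 2.55-fold lower at a floor of 3 counts over the class. WT members held 2 Klrg1 UMIs against 170, a log2 ratio of -4.22 (-7.28 to -2.34).

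**Figure D2:**
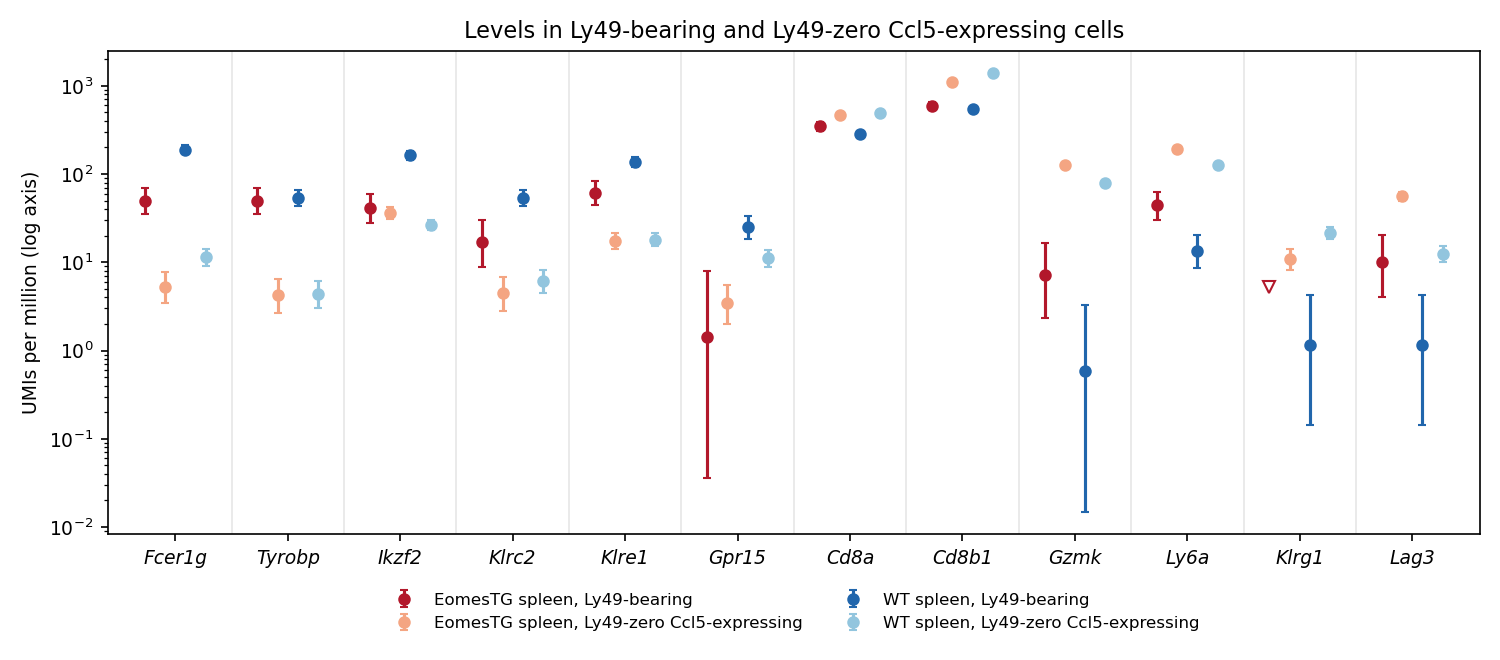
Levels in CPM (log axis) of selected genes in Ly49-bearing and Ly49-zero Ccl5-expressing spleen cells, with the EomesTG library left of the WT library; points are CPM of UMIs summed over a class, bars are exact 95% Poisson intervals (counting error only), and the open triangle is the upper bound of that interval where 0 Klrg1 UMIs were counted. Fcer1g and Klre1 were higher in members of both genotypes, Cd8b1 was lower in members of both, and Ikzf2 stood at 41.5 CPM in EomesTG and 164 CPM in WT members.

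The list of regulatory CD8 T cells as a whole did not follow the Ly49 genes in either spleen library, whereas Ikzf2 did in WT spleen. Ikzf2, which encodes the transcription factor Helios (chr1:69531214-69687245, reverse strand), had a UMI in 20 EomesTG members (18.3%) and 133 WT members (45.9%). Its level was 41.5 CPM in EomesTG members against 36.4 CPM in EomesTG Ly49-zero Ccl5-expressing cells, a log2 ratio of 0.19 (-0.43 to 0.76) that was not called. In WT spleen it was 164 CPM in members against 26.5 CPM, a log2 ratio of 2.63 (2.36 to 2.89). Over the list, 2 of 16 measured genes were higher and 6 lower in WT members (median log2 ratio -0.22). In EomesTG members 0 were higher and 4 lower (median -0.515). The WT genes that were higher were Ikzf2 and Il2rb, the interleukin 2 and 15 receptor beta chain, at 620 against 375 CPM (log2 ratio 0.73, 0.62 to 0.83). In EomesTG spleen Il2rb stood at 462 against 401 CPM, a log2 ratio of 0.20 that was not called. The listed genes that were lower in both genotypes included Gzmb, Lag3 and Ctla4.

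Genes shared with intestinal innate-like CD8 T cells were higher in WT members in 8 of 13 cases and lower in 3 (median log2 ratio 0.87), and in EomesTG members 3 of 11 were higher and 1 lower (median 0.20), Tyrobp among the 3. Beside Fcer1g, Tyrobp and Ikzf2, the WT genes included Xcl1, a chemokine that attracts cross-presenting dendritic cells, at 190 against 58.9 CPM, a log2 ratio of 1.69 (1.48 to 1.90). They also included Cd7, an immunoglobulin-superfamily receptor of T and NK cells, at 509 against 279 CPM, a log2 ratio of 0.87 (0.75 to 0.98). In EomesTG spleen Xcl1 stood at 104 against 80.4 CPM and Cd7 at 329 against 310 CPM, and neither was called. Gpr15, a homing receptor for the large intestine (chr16:58717433-58719070, reverse strand), had 43 UMIs in 36 WT members and 87 UMIs in WT Ly49-zero Ccl5-expressing cells, that is 25.1 against 11.1 CPM and a log2 ratio of 1.17 (0.61 to 1.72). EomesTG members held 1 Gpr15 UMI against 17 in their counterparts, 1.43 against 3.44 CPM with a log2 ratio of -1.27 (-6.65 to 1.41), so the EomesTG members could not be told from other Ccl5-expressing cells by this gene. Lat2, an adaptor of Fc receptor signalling, was higher in WT members at 16.9 against 1.79 CPM, a log2 ratio of 3.24 (2.27 to 4.28).

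The CD8 coreceptor was lower in Ly49-bearing cells, and its beta chain more so than its alpha chain. Cd8b1 (chr6:71322788-71337494, forward strand) stood at 589 CPM in EomesTG members against 1102 CPM in EomesTG Ly49-zero Ccl5-expressing cells, a log2 ratio of -0.90 (-1.05 to -0.76). In WT spleen it stood at 542 CPM in members against 1381 CPM, a log2 ratio of -1.35 (-1.45 to -1.25). Cells without a Cd8b1 UMI made up 23.9% of EomesTG and 36.9% of WT members, against 13.1% and 6.97% of Ly49-zero Ccl5-expressing cells of EomesTG and WT spleen, although members were the deeper cells. Cd8a had log2 ratios of -0.44 (-0.64 to -0.25) in EomesTG spleen, short of 1.5-fold, and -0.79 (-0.93 to -0.65) in WT spleen. Cd3e stayed within 1.5-fold, with log2 ratios of -0.12 in EomesTG and -0.07 in WT spleen.

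Among cytotoxic effector genes, 7 of 14 measured were lower in Ly49-bearing cells of EomesTG spleen and 11 of 14 in those of WT spleen, with 0 higher in either (medians -0.93 and -1.31). Gzmk, a granzyme of memory CD8 T cells, had 5 UMIs in EomesTG members against 624 in EomesTG Ly49-zero Ccl5-expressing cells, a log2 ratio of -4.14 (-5.77 to -2.91). WT members had 1 Gzmk UMI against 611, a log2 ratio of -7.06 (-12.37 to -4.58). Gzma, another granzyme, had a log2 ratio of -1.90 (-2.19 to -1.62) in WT spleen. In EomesTG spleen the Gzma ratio was 0.02, but 66 of 68 UMIs came from 1 member. Without that member the log2 ratio was -5.06 (-8.11 to -3.20), with all EomesTG Ly49-zero Ccl5-expressing cells kept. Among the latter, 1 cell held 52 of 475 Gzma UMIs. Ifng, the cytokine of type 1 responses, had 3 UMIs in EomesTG and 4 in WT members, with log2 ratios of -2.49 (-4.79 to -0.91) and -2.72 (-4.62 to -1.32). Set against all Ly49-zero cells, with no Ccl5 threshold, Ifng (-0.64 in EomesTG, -1.30 in WT spleen) was no longer called, nor was Gzma in WT spleen (-0.23) or Klrg1 in EomesTG spleen. Gzmk was still called, at -1.87 in EomesTG and -5.39 in WT spleen.

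Some inhibitory receptors and interferon-response genes were called lower in members. Among inhibitory receptors 1 of 11 was higher and 5 lower in EomesTG members (median log2 ratio -1.08), and 1 of 11 was higher and 4 lower in WT members (median -0.46); the higher one in both was Cd160, a receptor shared by NK cells and CD8 T cells. Lag3, an MHC class II-binding inhibitory receptor, had log2 ratios of -2.49 (-3.82 to -1.43) in EomesTG and -3.42 (-6.49 to -1.53) in WT spleen. Of the interferon-response genes 0 of 13 were higher and 4 lower in EomesTG members, and 0 of 14 higher and 10 lower in WT members (medians -0.58 and -1.08). Ly6a, which encodes the interferon-inducible surface antigen Sca-1, stood at 44.3 CPM in EomesTG members against 194 CPM, a log2 ratio of -2.13 (-2.70 to -1.62), and at 13.4 CPM in WT members against 125 CPM, a log2 ratio of -3.22 (-3.89 to -2.63). Ifi27l2a, another interferon-inducible gene, had log2 ratios of -0.87 (-1.10 to -0.65) in EomesTG and -1.07 (-1.20 to -0.94) in WT spleen. None of 13 MHC class I genes, which include ligands of Ly49 receptors, was called in either genotype (medians -0.30 and -0.25).

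Naive-cell genes were called higher in neither genotype, with 2 of 13 lower in EomesTG and 2 of 14 lower in WT members. Transcription factors gave 0 of 22 higher and 3 lower in EomesTG members and 4 of 23 higher and 4 lower in WT members. Tbx21, the T-box factor T-bet, had log2 ratios of -0.12 (-0.61 to 0.35) in EomesTG and -0.05 (-0.34 to 0.22) in WT spleen. Eomes stood at 167 CPM in EomesTG members against 159 CPM in EomesTG Ly49-zero Ccl5-expressing cells, and at 102 CPM in WT members against 83.8 CPM, with log2 ratios of 0.08 (-0.22 to 0.36) and 0.29 (0.04 to 0.53). Neither T-box factor thus differed by 1.5-fold between Ly49-bearing and Ly49-zero Ccl5-expressing cells of a genotype, whereas against all Ly49-zero cells Tbx21 was higher in members, at 1.57 in EomesTG and 1.09 in WT spleen, and Eomes stood at 0.33 and 0.27. Cell-cycle genes gave 4 of 14 higher and 0 lower in EomesTG members, but 0 higher and 4 lower once the member with the most UMIs of each gene was left out. The EomesTG Ly49-zero Ccl5-expressing cells kept their top cell there, which held 23 of 151 Birc5 UMIs and 13 of 55 Cenpf UMIs. In WT members 0 of 14 were higher and 6 lower, Ube2c and Mki67 among them.

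**Figure D3:**
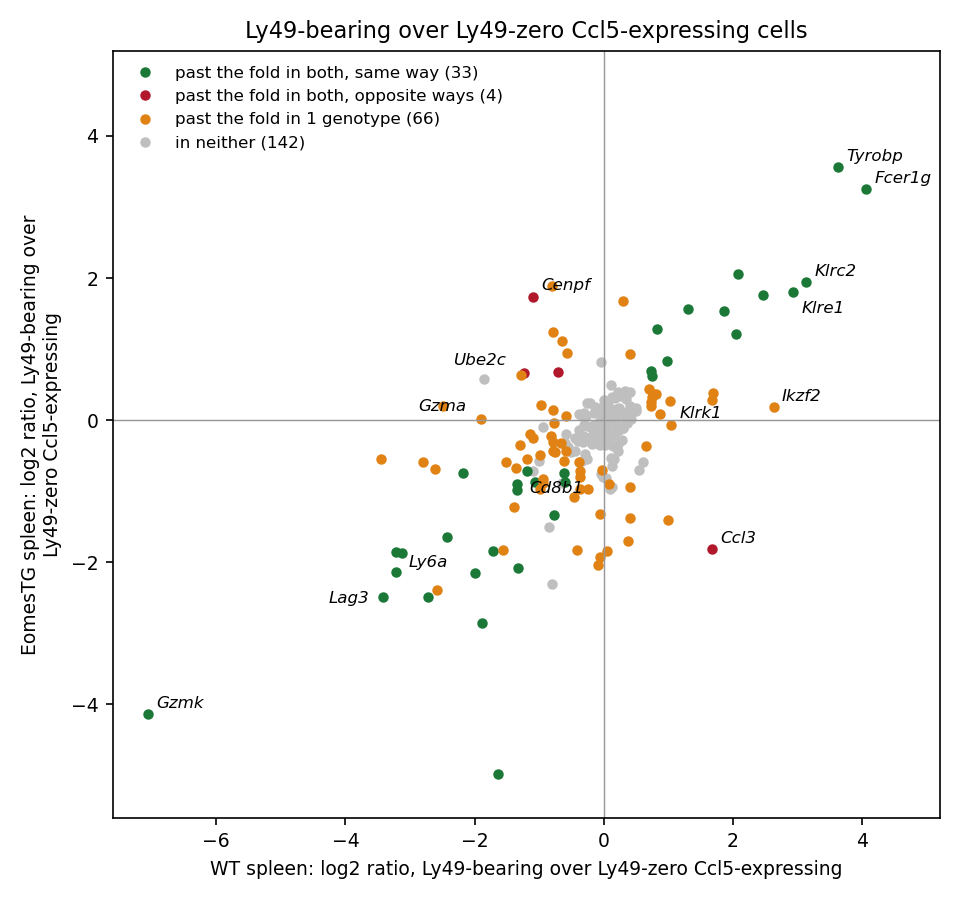
Log2 ratios of Ly49-bearing over Ly49-zero Ccl5-expressing cells in EomesTG spleen (y axis) and WT spleen (x axis) for 245 listed or named genes with values in both; each point is 1 gene and the axes come from separate libraries. Of these genes 33 were called in the same direction in both genotypes, 4 in opposite directions and 66 in 1 genotype alone. Some were named because they were called in these same comparisons, so the counts are descriptions. Of all genes measured, 4.82% were called in EomesTG and 6.02% in WT spleen.

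Levels were also compared between cells by the summed UMIs of the 3 receptors, cells with a sum of 1, which are not members, included; of these, 66.2% in EomesTG and 80.5% in WT spleen passed the Ccl5 threshold. In WT spleen, cells with a sum of 1, 2, 3 and 4 or more had 37.96, 49.2, 165 and 272 CPM of Fcer1g and 82.3, 77.0, 162 and 210 CPM of Ikzf2. Cd8b1 ran the other way in WT spleen, at 931, 832, 480 and 415 CPM. In EomesTG spleen the same classes had 3.74, 53.3, 16.7 and 73.0 CPM of Fcer1g, 32.4, 46.6, 27.8 and 45.6 CPM of Ikzf2, and 813, 699, 589 and 438 CPM of Cd8b1. Cd8b1 values fell with each step of the sum in both libraries. Exact intervals of neighbouring classes overlapped, except between sums of 2 and 3 in WT spleen. Among members, those of a sum of 2 and of 4 or more lay apart. They were 608 to 800 against 355 to 535 CPM in EomesTG and 751 to 919 against 374 to 459 CPM in WT spleen. The share of cells passing the Ccl5 threshold also differed between the classes, and its part was not tested. Ikzf2 values showed no such order in EomesTG cells. EomesTG cells with a sum of 4 or more had 45.6 CPM of Ikzf2, against 210 CPM in WT cells of the same sum.

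WT members were divided further by Fcer1g. The 95 WT members with an Fcer1g UMI had 142 CPM of Cd8b1 and 204 CPM of Cd8a, and the 195 without one had 724 and 319 CPM. Ikzf2 stood at 286 CPM with and 108 CPM without an Fcer1g UMI, Klrk1 at 311 and 64.6 CPM, Gpr15 at 44.9 and 16.1 CPM and Tyrobp at 148 and 11.04 CPM. All 18 Ncr1 UMIs of WT members lay in cells with an Fcer1g UMI. These 5 Ncr1-bearing cells had 6 to 13 Tyrobp UMIs each and 0 of Cd8b1. Values of the division without them are not given here. Eomes stood at 110 CPM with and 98.5 CPM without an Fcer1g UMI. The cells with an Fcer1g UMI, chosen here from the data, had the lower median depth (4984 against 5650 UMIs), and no corresponding division was made of the 11 EomesTG members.

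The question that the design poses for these cells is how the EomesTG members differed from the WT members. Of 6434 genes measured, 2.63% were higher and 2.6% lower in EomesTG than in WT members (5.22% in either direction), and of 190 listed genes 26 were higher and 16 lower. The median log2 ratio over all genes measured was 0.00. The ratio in Ly49-zero Ccl5-expressing cells of the same libraries is given beside each value, and library and genotype cannot be told apart in either class. Between those cells 3.1% of 9644 genes were higher and 1.85% lower in EomesTG spleen (4.95% in either direction).

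Ikzf2 was lower in EomesTG members, at 41.5 CPM against 164 CPM in WT members, a log2 ratio of -1.98 (-2.58 to -1.43), and stood at 0.46 (0.16 to 0.76) in Ly49-zero Ccl5-expressing cells. Fcer1g was lower in EomesTG members by a log2 ratio of -1.92 (-2.47 to -1.41), against -1.11 (-1.80 to -0.47) in the Ly49-zero Ccl5-expressing cells. Tyrobp stood at -0.10 (-0.71 to 0.47), and at -1.86, called lower, without the Ncr1-bearing barcodes. Klrk1 was lower at -2.04 (-2.71 to -1.43), against -0.94, Klrc2 at -1.65 (-2.65 to -0.77), against -0.46, and Klre1 at -1.16 (-1.66 to -0.68), against -0.03. The NK-receptor list thus gave 1 of 10 genes higher and 4 lower, the higher one being Ncr1 with its UMIs in 1 EomesTG cell. At a Ly49 sum of 2, EomesTG and WT cells had 76.6 and 81.3 CPM of Klre1. Klrc2 stood at 29.96 and 36.4 CPM there, and Fcer1g at 53.3 and 49.2 CPM. At a sum of 4 or more, Klre1 stood at 45.6 and 180 CPM, and Fcer1g at 73.0 and 272 CPM. Klrc2 had 1 UMI in those EomesTG cells, 4.56 CPM against 66.1 CPM. That class held 33 of 109 EomesTG and 148 of 290 WT members, and its part in the ratios was not tested. Gpr15 had 1 UMI in EomesTG members against 43 in WT members, a log2 ratio of -4.13 (-9.47 to -1.58), against -1.69 in the Ly49-zero Ccl5-expressing cells. Of the genes shared with intestinal innate-like cells, 0 of 9 were higher and 4 lower, with Xcl1 at -0.87 (-1.25 to -0.50) and Cd7 at -0.63 (-0.85 to -0.42). Cd8b1 (0.12), Tbx21 (-0.29) and Il2rb (-0.42) were within 1.5-fold between the genotypes.

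Eomes itself was higher in EomesTG members, at 167 CPM against 102 CPM in WT members, a log2 ratio of 0.71 (0.36 to 1.06), and at 0.92 in Ly49-zero Ccl5-expressing cells. Klra8 was higher in EomesTG members at 67.2 CPM against 5.84 CPM, a log2 ratio of 3.52 (2.52 to 4.67), and Klra9 at 62.9 CPM against 15.2 CPM, a log2 ratio of 2.05 (1.32 to 2.81). In the Ly49-zero Ccl5-expressing cells the corresponding ratios were 2.89 for Klra8 and 2.08 for Klra9, so the genes were higher in EomesTG spleen in cells with a Klra1, Klra6 and Klra7 sum of 0 as well. Ly6a was higher in EomesTG members by 1.72 (0.90 to 2.57), against 0.63. The largest ratios over WT belonged to Hspa1a and Hspa1b, inducible heat-shock chaperones. Hspa1a stood at 259 CPM in EomesTG and 5.84 CPM in WT members, a log2 ratio of 5.47 (4.56 to 6.55), and at 6.82 in Ly49-zero Ccl5-expressing cells. Heat-shock genes gave 4 of 9 higher and 0 lower, and immediate early genes 6 of 12 higher and 0 lower, with Fos, an AP-1 subunit, at 1.48 (1.18 to 1.79), against 1.89 in the Ly49-zero Ccl5-expressing cells. These genes are also known to respond to handling of cells, whose part was not tested. Cell-cycle genes gave 5 of 10 higher and 0 lower in EomesTG members, and 0 of the 4 still measured once the cell with the most UMIs of each gene was left out on each side.

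**Figure D4:**
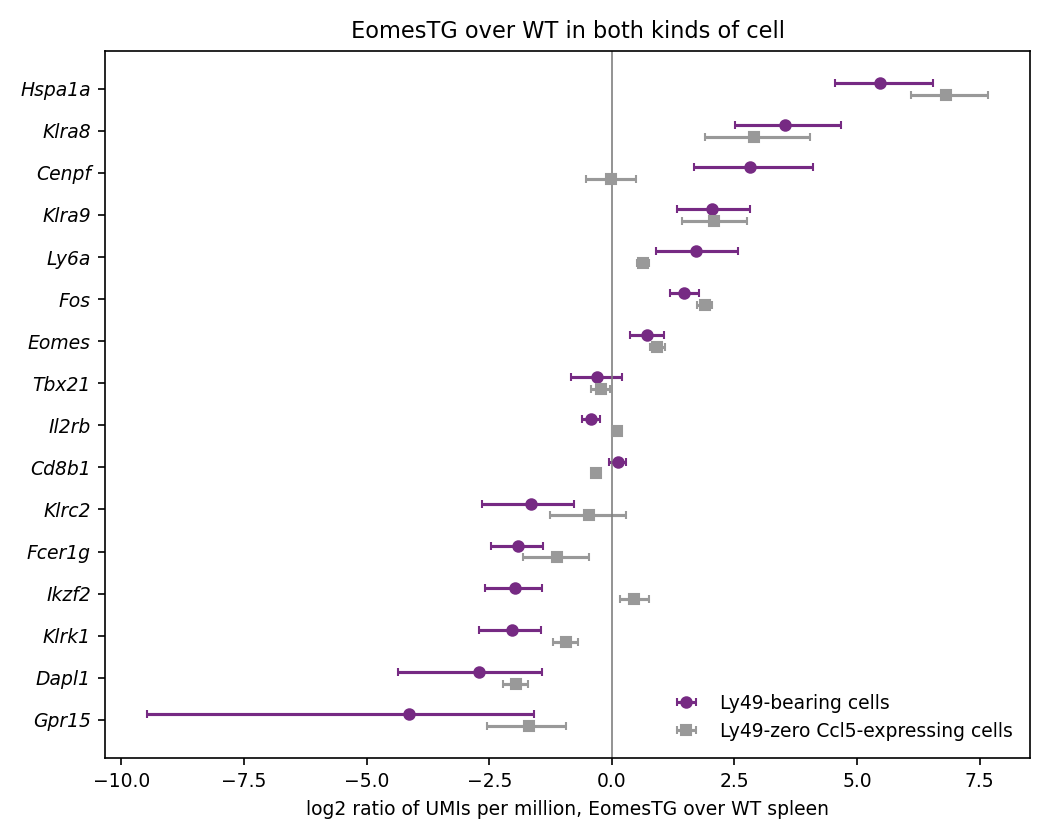
Log2 ratios of EomesTG over WT for selected genes, in Ly49-bearing cells and in Ly49-zero Ccl5-expressing cells of the spleen libraries; points are ratios of CPM and bars are exact 95% intervals, counting error only. Ikzf2 stood at -1.98 in Ly49-bearing and 0.46 in Ly49-zero Ccl5-expressing cells, while Hspa1a was far above 0 in both.

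The same rule applied to the liver libraries, which share their pool of mice with the spleen libraries, gave the values that follow for Ly49-bearing against Ly49-zero Ccl5-expressing cells. A productive TRB chain was recovered from 83.7% of EomesTG and 80.1% of WT liver members. The Ly49-zero Ccl5-expressing liver cells had one in 84.8% of EomesTG and 90.7% of WT cells. The check of the CD8 T cell label above covered spleen members only. By the same call 3.24% of genes were higher and 2.36% lower in EomesTG liver members (5.6% in either direction), and 8.42% were higher and 4.31% lower in WT liver members (12.7% in either direction). Fcer1g stood at 743 CPM in EomesTG liver members against 54.9 CPM (log2 ratio 3.76, 3.61 to 3.91), and at 1168 CPM in WT liver members against 60.0 CPM (4.28, 4.15 to 4.42). Ikzf2 had log2 ratios of 0.74 (0.50 to 0.97) in EomesTG and 3.30 (3.09 to 3.52) in WT liver, at 176 against 105 CPM and 284 against 28.8 CPM. Cd8b1 had log2 ratios of -0.56 (-0.69 to -0.43) in EomesTG liver, short of 1.5-fold, and -2.46 (-2.57 to -2.34) in WT liver. Gpr15 had 0 UMIs in EomesTG liver members against 10, and a log2 ratio of 2.56 (1.86 to 3.30) in WT liver. Gzmb, which encodes granzyme B, was higher in liver members, with log2 ratios of 0.94 (0.85 to 1.02) in EomesTG and 1.52 (1.45 to 1.59) in WT liver, beside -4.98 (-10.29 to -2.49) in EomesTG and -1.64 (-2.38 to -0.99) in WT spleen. Gzmk was lower in liver members as in spleen members, with log2 ratios of -0.83 (-0.98 to -0.68) in EomesTG and -4.04 (-4.57 to -3.56) in WT liver. Of the 14 cytotoxic effector genes, 1 was higher and 1 lower in EomesTG liver members, and 3 were higher and 7 lower in WT liver members.

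The TCR, which the rule did not use, separated Ly49-bearing cells from the cells they were set against by clone size. A clone was a set of cells of a library with identical productive TRA and TRB V genes and CDR3 nucleotide sequences, among cells with both chains, with its cells counted over all kept barcodes of the library. Of 83 EomesTG and 236 WT members, 0 belonged to a spleen clone of 2 or more cells, with exact upper limits of 4.35% and 1.55%. Of the Ly49-zero Ccl5-expressing cells, 73 of 734 did in EomesTG (9.95%, 7.88 to 12.3) and 109 of 1103 in WT spleen (9.88%, 8.18 to 11.8). Among Ly49-zero Ccl5-zero cells the shares were 1.45% in EomesTG and 0.847% in WT spleen, within the limits that a count of 0 allows for the members. The largest clones among Ly49-zero Ccl5-expressing cells had 9 cells in EomesTG and 39 in WT spleen. By the TRB chain alone, 1 of 99 EomesTG members (1.01%) and 6 of 272 WT members (2.21%) were in clones, against 12.7% of EomesTG and 11.9% of WT Ly49-zero Ccl5-expressing cells. Linking cells that shared at least 1 TRA and 1 TRB chain gave 0 of 83 EomesTG and 4 of 236 WT members (1.69%), against 12.1% and 11.2%.

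Sharing with the liver was also rare among members. A clone also found in the liver of the same genotype held 0 of 83 EomesTG and 2 of 236 WT members (0.847%, 0.103 to 3.03), against 62 of 734 EomesTG (8.45%) and 115 of 1103 WT (10.4%) Ly49-zero Ccl5-expressing cells. The 2 WT members had the same TRA and the same first TRB chain, and 1 of them had a second TRB chain, so that the definition by identical sets kept them apart. Their CDR3 sequences are shown because they are the receptors that linked Ly49-bearing cells of both organs; they run 5′ to 3′ as assembled by the authors, and capitals mark the first and last codons, for the cysteine and the phenylalanine that bound the CDR3.
TRAV14N-3 CDR3 alpha, chromosome 14: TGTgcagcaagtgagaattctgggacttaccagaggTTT
TRBV13-3 first CDR3 beta, chromosome 6: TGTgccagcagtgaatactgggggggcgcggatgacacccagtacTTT
TRBV13-3 second CDR3 beta, chromosome 6: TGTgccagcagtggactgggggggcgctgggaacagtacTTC
The CDR3s have 39, 48 and 42 bases. In WT liver, 13 cells carried the set with both TRB chains and 2 the set with 1, and all of them were Ly49-bearing. By the first TRB sequence alone, 3 WT spleen and 18 WT liver cells carried it, all Ly49-bearing, and it was found in 0 Ly49-zero cells of any library.

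V segment use was compared between members and Ly49-zero Ccl5-expressing cells among cells with 1 chain of the locus, for 65 TRB segments and TRA families, counted per library, with at least 20 cells over both classes. The interval of the ratio lay off equality for 0 of 32 segments in EomesTG and 3 of 33 in WT spleen, which were named after their values were seen. TRBV10 was used by 6.28% of WT members against 2.41% of WT Ly49-zero Ccl5-expressing cells, TRBV12-2 by 13.8% against 8.21%, and TRBV29 by 2.93% against 8.51%. The intervals were not adjusted for the number of segments, and the median CDR3 length was 14 codons in both classes of both libraries. Mean TRB CDR3 lengths were 14.2 codons in EomesTG and 14.1 in WT members, against 13.9 and 13.8 in Ly49-zero Ccl5-expressing cells. Mean TRA lengths were 13.5 and 13.7 codons, against 13.8 and 13.8. These differences were not tested.

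**Figure D5:**
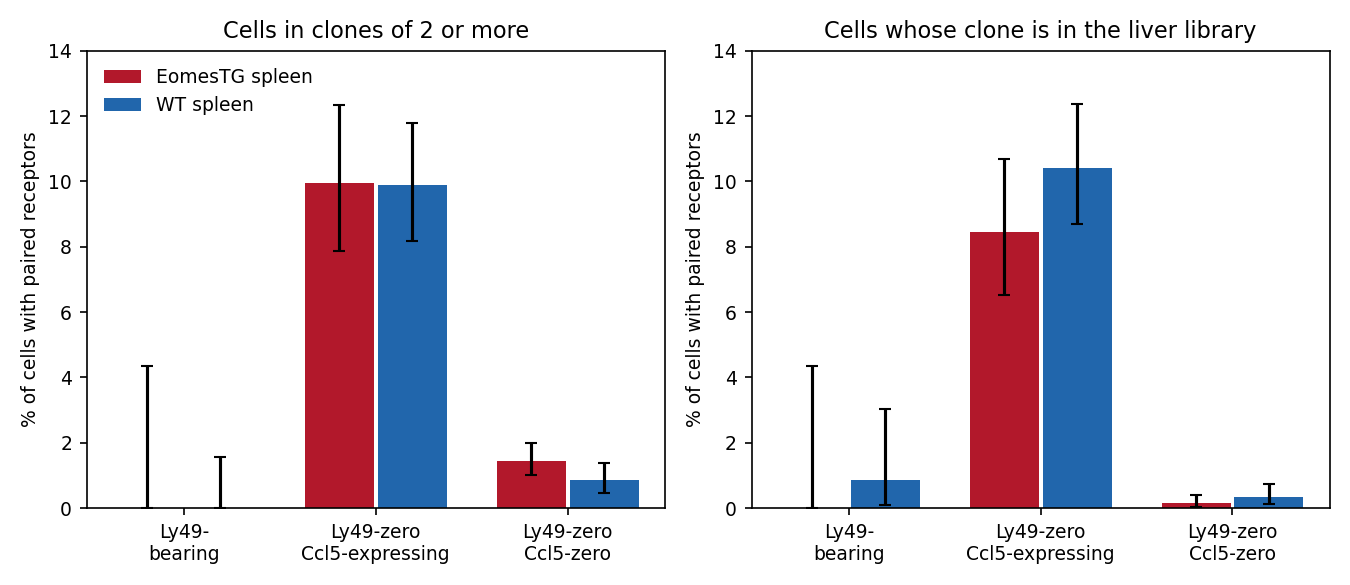
Share of spleen cells with both TCR chains that belonged to a clone of 2 or more cells, and share whose clone was also found in the liver library of the same genotype (percent, exact 95% intervals, counting error only), for Ly49-bearing, Ly49-zero Ccl5-expressing and Ly49-zero Ccl5-zero cells, EomesTG left of WT. In the clone-size panel EomesTG and WT members were at 0 of 83 and 0 of 236 cells, against 9.95% and 9.88% of Ly49-zero Ccl5-expressing cells, and in the liver panel at 0% and 0.847%, against 8.45% and 10.4%.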

How the data were processed

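Single CD8 T cells were profiled with 10x Genomics 5′ v1 chemistry, per the labels' protocols, in 4 RNA and 4 TCR libraries of EomesTG and WT spleen and liver. Cell Ranger and mm10 are named in the submitters' processing notes, with version 3.1.0 in the matrix headers. The deposited matrices hold unscaled UMI counts of each gene in each barcode, and the contig tables hold UMI and read counts per assembled TCR contig, without normalization per the file headers. The spleen libraries kept 5726 of 5774 EomesTG and 5335 of 5415 WT barcodes, with 28282240 and 28760172 UMIs and medians of 4751.5 and 5023 UMIs per cell. Members, gene lists and comparisons were chosen with earlier results of these data known.

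UMIs of 31053 genes were summed over the cells of a class and divided by the class total (CPM). Ratios have exact conditional binomial 95% intervals, levels exact Poisson intervals and shares exact Clopper-Pearson intervals. A gene needed 30 UMIs over both classes. Antigen receptor, mitochondrial, ribosomal protein, sex-linked and model genes, markers of other cell types and the genes of the rule were left out of the genes named, which are the 12 highest and the 12 lowest of each comparison by the interval bound nearest to equality, up to 4 called members of each list and 14 genes named in every comparison, of which only some are printed. With 1 library per group no p-value was computed. The ratio and its interval were tested on simulated counts. Alternatives changed the Ly49 and Ccl5 thresholds, the cells set against members, depth, scaling, the UMI minimum, the mitochondrial limit, doublet-like barcodes and the clone definition. The tools were scipy 1.17.1, numpy 2.4.6, pandas 2.3.3 and matplotlib 3.10.9 under Python 3.11.15.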

Additional observations from a re-analysis of the deposited data

Results flagged for a closer look

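Among the genes measured in both spleen libraries, 4 were called in opposite directions in Ly49-bearing against Ly49-zero Ccl5-expressing cells of the 2 genotypes; the difference between the genotypes was not tested, since each is 1 library. Ccl3, a chemokine of activated lymphocytes, had log2 ratios of -1.82 in EomesTG and 1.67 in WT spleen, and without the member with the most Ccl3 UMIs these were -2.40 and 1.35. Against all Ly49-zero cells the Ccl3 ratios were 0.33 in EomesTG and 2.73 in WT spleen, both positive. The cell-cycle genes Cenpf (1.74 in EomesTG, -1.10 in WT), Top2a (0.68 in EomesTG, -0.71 in WT) and Ube2c (0.66 in EomesTG, -1.24 in WT) were called higher in EomesTG members and lower in WT members. For these genes the EomesTG values without the member with the most UMIs of the gene were -0.12, -0.51 and -1.70. The Ly49-zero Ccl5-expressing cells kept their own top cell in that setting, for Ccl3 as well, and leaving it out on both sides was not tested.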

How the results depend on the processing

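No paired analysis was possible because each genotype and tissue is 1 library, so no replicate numbers are shared. The lower share of Ly49-bearing cells in EomesTG spleen kept its direction under every alternative run, with log2 ratios between -1.92 (sum of at least 3) and -1.01 (sum of at least 1). With cells thinned to 2000 UMIs, members were still chosen from the full counts and only shallower cells were left out. The share and the clone sizes were thus not tested at equal depth. Counts of called listed genes in members against Ly49-zero Ccl5-expressing cells ran from 36 to 75 in EomesTG (50 as reported) and from 64 to 97 in WT spleen (83). For EomesTG against WT members the count was 25 thinned to 2000 UMIs and 21 with at least 100 UMIs, against 42. The WT clone share was 2.21% by TRB alone and 1.69% by linked chains, a definition chosen after seeing the data, as were the settings without the top cell and without Ncr1-bearing barcodes. Of 3031 values of named genes, 2664 kept their call or were called in neither run, the latter without a check of direction. The call was lost in 326 and gained in 8. Among values called in at least 1 of the runs compared, 33 turned their direction. These were, for EomesTG members against Ly49-zero Ccl5-expressing cells, Ube2c (-0.40) with a sum of at least 1; Birc5 (-1.06), Ccna2 (-0.90) and Ube2c (-1.55) with the Ccl5 threshold in members; Ccl3 (0.33), Ccl4 (0.43), Id2 (0.40), Il10ra (0.15), Itga4 (0.16), S100a6 (0.88), S1pr5 (0.76), Tbx21 (1.57) and Tigit (0.58) against all Ly49-zero cells; Birc5 (-0.023) thinned; Birc5 (-0.83), Ccna2 (-0.59) and Ube2c (-1.23) without barcodes with 2 TRB chains. Birc5 (-0.15) and Ube2c (-0.64) turned without barcodes above 15000 UMIs, and Birc5 (-1.06), Ccna2 (-0.79), Cenpf (-0.12), Top2a (-0.51) and Ube2c (-1.70) without the member with most UMIs of the gene. In WT members, Fasl (0.66) and Tbx21 (1.09) turned against all Ly49-zero cells. For EomesTG against WT members, Birc5 (-0.17), Ccna2 (-0.32) and Ube2c (-0.59) turned with the Ccl5 threshold, Tyrobp (0.84) thinned, Bcl2a1b (-0.12) and Ube2c (-0.026) without 2 TRB chains, and Ube2c (-0.65) without barcodes above 15000 UMIs. Settings that leave cells out held fewer cells, and the stricter minimum measured fewer genes. The cause of the changed calls was not tested. An alternative that left 0 UMIs on one side gave no value. Depth limits low genes: 1 UMI in EomesTG members is 1.43 CPM.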
